A study of Mus musculus with 12 samples.

Results

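Adipose tissue was separated into fat cells and the cells around them, and 164 of the 32182 genes listed were high in the surrounding cells of both fat depots at a similar level, and low in the fat cells of both. They were chosen from TPM, the abundance of the transcripts of a gene after correction for gene length and for the size of the library. With 0.1 TPM added to each group mean, a member had to be at least 8-fold higher in stromal vascular cells (SVCs) than in adipocytes in epididymal (EAT) and in inguinal (IAT) adipose tissue. Its EAT to IAT ratio had to lie from 0.67 to 1.5 in SVCs and between 0.25 and 4 in adipocytes, and its mean had to reach 5 TPM in both SVC groups. These comparisons therefore describe the members, and no test is read from them.

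Epididymal fat lies inside the abdomen and counts as visceral, and inguinal fat lies under the skin. The mice were males of the inbred strain C57BL/6J, 8 weeks old when they went on a high-fat diet for 10 weeks, and every group had this diet. Collagenase digestion separated each depot into adipocytes and SVCs, and total RNA of each fraction was sequenced. Both fractions of both depots had 3 libraries each, or 12 in all. Since no label says that the libraries came from separate animals or whether animals were pooled, the spread between libraries may be technical. In bulk samples, fewer cells of a type and less RNA per cell cannot be told apart.

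White adipose tissue holds large lipid-filled adipocytes in a network of vessels and connective tissue. After collagenase digestion adipocytes float, while the stromal vascular fraction sinks, and the latter is a mixture of adipocyte precursors and fibroblasts, endothelial cells and pericytes, macrophages, lymphocytes and other immune cells. A gene high in this fraction in both depots can belong to any of these cell types. Genes carry UCSC transcript identifiers here and no table used here pairs them with symbols. The labelled cell types were therefore not checked against defining markers, and the roles of the members are not given. The 4 members named below are the most abundant pair and the pair with the steepest drop in adipocytes on average over both depots. All others are given by rank, from 1 for the highest mean TPM over the 6 SVC libraries.

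Among 10532 genes with a mean of at least 5 TPM in both SVC groups, 256 (2.43%) were at least 8-fold higher in SVCs than in adipocytes in both depots. Another 88 reached this fold in EAT alone and 145 in IAT alone. Of the 256 genes, 164 (64.1%) lay within the SVC depot limits, while 51 lay above 1.5 and 41 below 0.67. The limits on the adipocyte depot ratio removed none of the 164, whose ratios ran from 0.331 to 2.81. Nearest to the limits, the fraction ratio of members reached down to 8.05 for EAT and 8.03 for IAT, while genes just outside had 7.94 and 7.77. The SVC depot ratio reached 0.675 and 1.49 among members and 0.664 and 1.51 just outside. The least abundant member had 5.14 TPM in its lower SVC group and the nearest gene below the minimum 4.88 TPM.

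One library stood apart before any comparison was made. EAT adipocyte replicate 2 had a mean effective length, weighted by TPM, of 1339 bases, against 1830 and 1813 bases in replicates 1 and 3 of the group. The other 9 libraries lay between 1768 and 2048 bases. Totals were 20707325 to 26349357 expected counts per library.

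Summed over the members, the level in EAT SVCs was 32236, 27047 and 30656 TPM, and in IAT SVCs 32884, 30366 and 32741 TPM. Adipocytes held 2946, 1545 and 3272 TPM in EAT and 2726, 2323 and 2344 TPM in IAT. The SVC libraries of both depots thus covered overlapping ranges far above the adipocyte libraries, and the lowest sum was that of EAT adipocyte replicate 2. As a share of TPM in the library, the members made up 3.00% ± 0.266 (SD, n = 3) in EAT SVCs, 3.20% ± 0.141 in IAT SVCs, 0.259% ± 0.0918 in EAT adipocytes and 0.246% ± 0.0227 in IAT adipocytes. The 10 most abundant members carried 60.4% of the summed SVC level and the first alone 19.2%. By mean level over both SVC groups, 64 members lay between 5 and 20 TPM, 56 between 20 and 100, 37 between 100 and 1000, and 7 at 1000 TPM or above.

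uc007awp.2 was the most abundant member, with 2 transcripts. It had 5547, 4468 and 6435 TPM in EAT SVCs and 6136, 5572 and 7541 TPM in IAT SVCs. Its level in adipocytes was 572, 175 and 702 TPM in EAT and 663, 619 and 642 TPM in IAT. Every SVC library lay above every adipocyte library, the 2 SVC groups overlapped, and EAT adipocyte replicate 2 was the lowest of the 12. The fitted difference of SVCs from adipocytes was 3.16 on the log2 scale (SE 0.32) in EAT and 2.96 (SE 0.32) in IAT. SE is here an approximate error, worked back from the fitted difference and its test statistic.

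uc007gwx.2, also with 2 transcripts, came second. In SVCs it stood at 4237, 3693 and 3849 TPM in EAT and 3666, 3404 and 2780 TPM in IAT, so that each EAT library was above each IAT library. In adipocytes the values were 284, 183 and 302 TPM in EAT and 249, 178 and 180 TPM in IAT, which overlapped. The log2 difference of SVCs from adipocytes was 3.51 (SE 0.18) in EAT and 3.64 (SE 0.18) in IAT, a smaller error than that of uc007awp.2.

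Averaged over both depots on the log2 scale, the steepest drop in adipocytes among members with at least 50 TPM in both SVC groups was that of uc008bas.1, a gene with 1 transcript and rank 50. Its ratio of SVCs to adipocytes was 65.5 in EAT and 20.9 in IAT. Several members of at least 50 TPM had higher ratios in IAT, up to 40.0 at rank 52, so its place rests on the EAT ratio. uc008bas.1 had 154, 51.8 and 91.4 TPM in EAT SVCs and 82.3, 59.98 and 77.1 TPM in IAT SVCs. EAT adipocytes held 1.25, 1.46 and 1.54 TPM and IAT adipocytes 4.75, 3.08 and 2.38 TPM. The adipocyte groups did not overlap, with IAT higher, whereas EAT SVC libraries lay both above and below those of IAT. For this adipocyte difference the edgeR test used below gave an adjusted p of 0.073 and DESeq2 one of 0.011. These adipocyte values rest on 13, 21 and 18 counts in EAT and on 59, 33 and 29 counts in IAT. The log2 difference between fractions was 5.65 (SE 0.45) in EAT and 4.04 (SE 0.40) in IAT.

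uc007ubf.1, rank 67 and again with 1 transcript, was next. EAT SVCs held 89.8, 30.5 and 61.9 TPM and IAT SVCs 67.4, 42.4 and 56.5 TPM, with replicate 2 lowest and replicate 1 highest in both. Adipocytes held 0.39, 1.69 and 1.21 TPM in EAT and 2.94, 1.23 and 2.16 TPM in IAT, on 4, 24 and 14 counts and 36, 13 and 26 counts. The log2 difference between fractions was 5.23 (SE 0.55) in EAT and 4.31 (SE 0.51) in IAT. Both steep members had larger errors than the abundant pair.

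**Figure D1:**
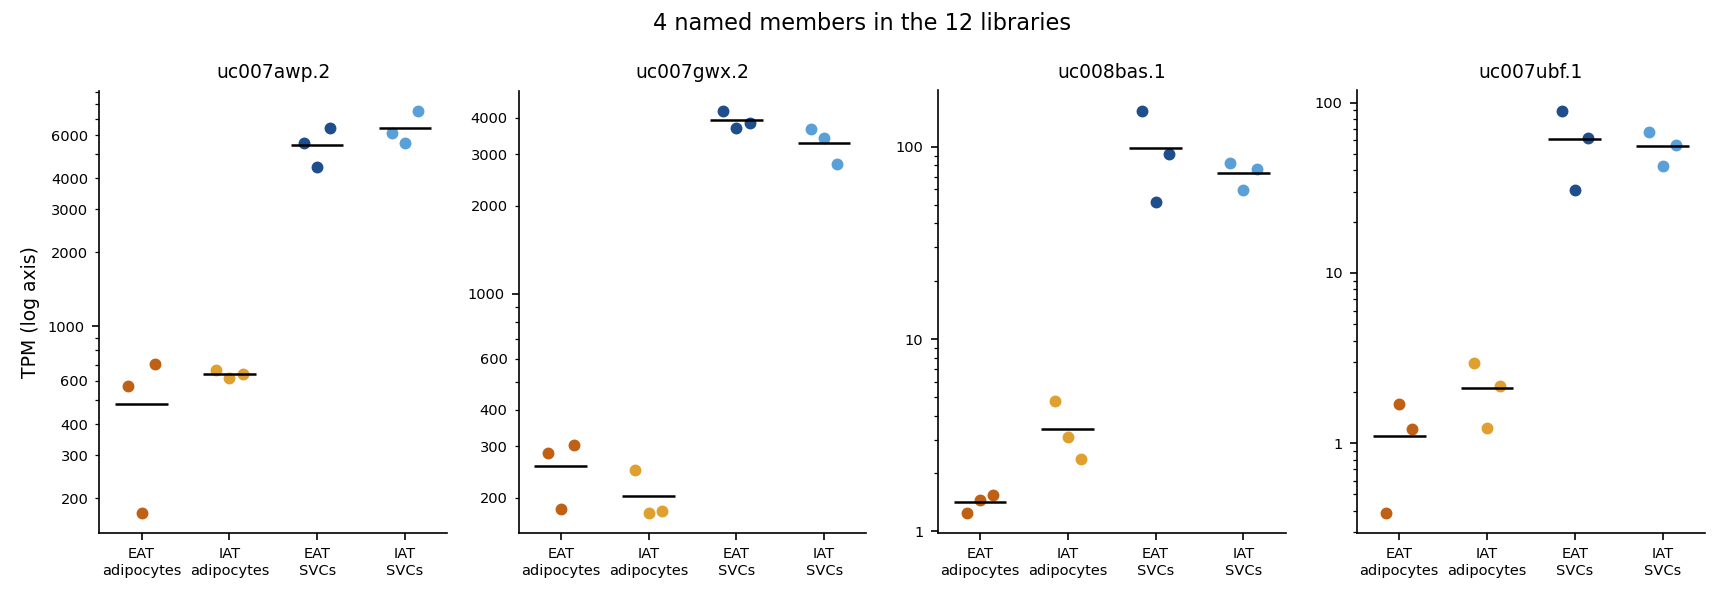
TPM of the 4 named members in each of the 12 libraries on log axes, with points for replicates 1 to 3 from left to right and a line at the mean of each group of 3. SVC libraries lie above adipocyte libraries in each panel, and EAT adipocyte replicate 2 is the lowest point of uc007awp.2 at 175 TPM.

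The fraction ratio over the 164 members had a median of 12.2 in EAT (quartiles 10.4 to 15.3) and 14.1 in IAT (quartiles 11.0 to 19.6). Ratios from 8 to 16 were held by 127 members in EAT and 92 in IAT, ratios from 16 to 32 by 23 and 62, and ratios of 32 or more by 14 and 10. In both depots together, 87 members stayed below 16 and 6 reached 32. For 102 members (62.2%) the ratio was lower in EAT than in IAT. The highest ratios depended on the 0.1 TPM added, since the member of rank 124 was listed at 0 in the 3 EAT adipocyte libraries and the member of rank 116 in all 6 adipocyte libraries.

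The member of rank 116, singled out after its values were seen, met the rule on 2 counts. It is a single transcript of 128 bases, for which the deposited tables give an effective length of 2.02 to 3.61 bases. EAT SVC replicate 2 held 1 expected count, listed as 40.23 TPM, and IAT SVC replicate 1 held 1, listed as 39.56 TPM, and the other 10 libraries held 0. It did not pass the filter on low counts, so 163 of the 164 members were tested. Members of rank 33, 34 and 35 had identical counts and TPM in every library and the same length of 998 bases, so the 163 tested members hold 161 distinct patterns. From these values the 3 cannot be told apart.

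Across the 163 tested members, log2 mean TPM in SVCs and in adipocytes had a Pearson correlation of 0.961 in EAT and 0.968 in IAT, and the SVC levels of the depots one of 0.991. The log2 fraction ratios of EAT and IAT correlated at 0.688. These are correlations across genes, which are not independent, and the rule bounds the ratios, so they are descriptions. With levels spread this widely, those of levels say little about a constant proportion. Fraction ratios of tested members ran from 8.05 to 96.2 in EAT and from 8.03 to 53.0 in IAT.

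**Figure D2:**
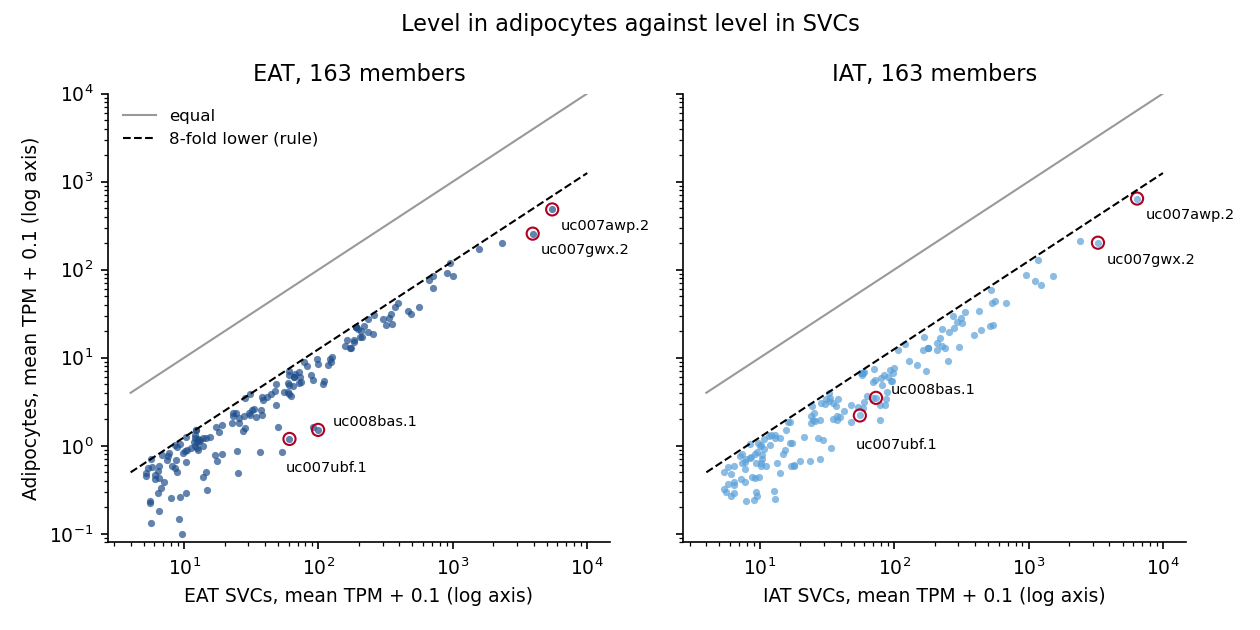
Mean adipocyte TPM against mean SVC TPM, both with 0.1 added and on log axes, for the 163 tested members in EAT (left) and IAT (right), with the 4 named members circled. The points follow a band just under the line of an 8-fold lower level that the rule sets, and a few members of low level in adipocytes fall well below it.

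Expressed as the part of the SVC level found in adipocytes, again with 0.1 TPM added, the median over the 164 members was 8.17% in EAT and 7.10% in IAT. Tested members ranged from 1.04% to 12.4% in EAT and from 1.89% to 12.5% in IAT, with an upper end that the rule fixes. Library by library, the median over the 164 members was 9.10%, 4.81% and 9.86% in EAT adipocytes and 7.71%, 6.38% and 6.21% in IAT adipocytes. Replicate 2 of the EAT adipocytes was the lowest of the 6, and replicates 1 and 3 of this group lay above every IAT library. The other 92 genes that were 8-fold higher in SVCs of both depots, but differed between depots in SVCs, had medians of 8.51%, 5.31% and 9.73% in the EAT libraries and 7.31%, 5.99% and 6.42% in the IAT libraries. Both sets thus had their lowest median in the same library. Whether SVC RNA carried over into the adipocyte fraction was not tested.

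**Figure D3:**
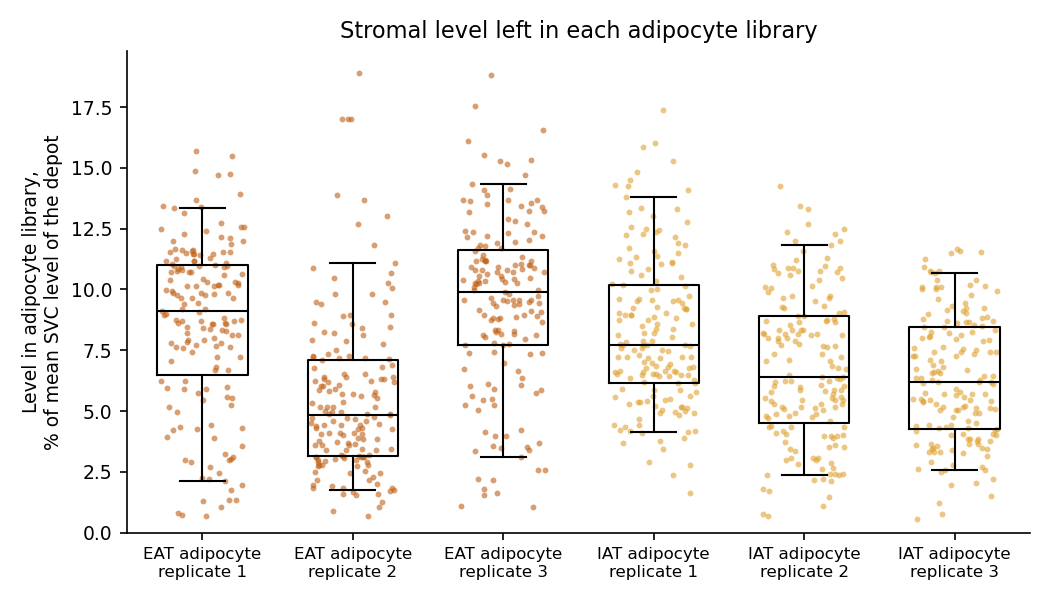
Level of each of the 163 tested members in each adipocyte library, in percent of the mean SVC level of the same depot, with boxes for median and quartiles and whiskers from the 5th to the 95th percentile. Over all 164 members, EAT adipocyte replicate 2 has the lowest median, 4.81%, and EAT adipocyte replicate 3 the highest, 9.86%.

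Groups did not overlap in TPM for 163 of the 164 members when SVCs were set above adipocytes in EAT, and likewise in IAT, where 48.6% and 58.1% of the 15813 tested genes showed the same pattern. For these 163 the lowest of the 6 SVC libraries lay above the highest of the 6 adipocyte libraries, and for 157 by at least 4-fold. The rule used group means, and the member that failed was that of rank 116. The quasi-likelihood test of edgeR, with calls made where the adjusted p was below 0.05, called 163 of 163 tested members higher in SVCs in EAT. Among all tested genes 32.0% were called higher and 30.4% lower there, or 62.5% in either direction. In IAT it also called 163 higher, against 40.5% higher and 29.5% lower of all tested genes, or 70.0% in either direction. The rule itself fixes these counts.

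Counts in adipocytes were low for part of the members. Summed over 3 libraries, the median was 213 counts in EAT and 196 in IAT, and 20 members in EAT and 23 in IAT had fewer than 30. In EAT 1 tested member had no count and 3 had 1 to 3 counts. In IAT none was without a count and 1 had 1 to 3 counts.

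Between the depots, SVC levels of the 164 members had a median EAT to IAT ratio of 0.957, and adipocyte levels one of 1.08. In SVCs, all EAT libraries lay above all IAT libraries for 11 members (23.0% of all tested genes) and below for 31 (20.8%). In adipocytes the same held for 11 members (18.4%) and 12 members (23.8%). The SVC ratio was limited by the rule, and the adipocyte ratio only loosely.

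The edgeR test called 6 of 163 members between the depots in SVCs (background 14.6%), 2 higher in EAT (background 7.77%) and 4 lower (6.86%), with log2 differences of 0.44 to 0.57 in size. With the replicate number as a block it called 10, of which 2 were higher, against 1328 higher and 1177 lower of all 15813 tested genes. The largest was that of rank 106, with 19.9, 18.5 and 19.0 TPM in EAT SVCs against 13.4, 12.2 and 12.9 TPM in IAT SVCs. The member of rank 14 was the most abundant of the 6, with 398, 395 and 373 TPM in EAT and 556, 554 and 568 TPM in IAT. Neither pair of groups overlapped. Leaving out EAT adipocyte replicate 2, which enters this comparison only through the shared estimate of the spread and the genes tested, raised the count to 31, of which 6 were higher. Calls over all genes rose as well, from 1229 higher and 1085 lower of 15813 to 2390 and 2357 of 16065. The count fell to 1 without EAT SVC replicate 1, without EAT SVC replicate 3 or without IAT SVC replicate 2, and to 2 without IAT SVC replicate 1. It was 3 when EAT SVC replicate 2 or IAT adipocyte replicate 1 was left out. Over all tested genes, calls also fell in each run with 1 to 3 members called, as to 720 higher and 581 lower of 16046 without IAT SVC replicate 2.

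In adipocytes 30 members were called (background 39.7%), 20 of them higher in EAT (21.6%) and 10 lower (18.1%). The 20 hold 18 distinct patterns because of the identical genes of rank 33 to 35, and their log2 differences ran from 0.46 to 1.54. The 10 lower members ran from -0.43 to -2.62, the last with 0, 0 and 0.10 TPM in EAT adipocytes, where the fitted fold depends on the prior count. The split between directions depended on the scaling and on the tool. With DESeq2's size factors 6 were called higher and 12 lower, with DESeq2 itself 18 and 16, and with limma-voom 9 and 10. Over all 15813 tested genes these settings called 2814 higher and 3717 lower, 2982 and 3967, and 3190 and 2991. DESeq2's size factors moved the median log2 difference of all genes from 0.02 to -0.11. Without EAT adipocyte replicate 2, 44 members were called higher and 9 lower, against 4352 and 4222 of 16065 tested genes. Without IAT adipocyte replicate 2, 5 members were called in each direction, against 2754 higher and 2258 lower of 16056 tested genes.

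The 3 identical genes had 16.21, 32.25 and 18.09 TPM in EAT adipocytes and 13.74, 14.54 and 10.14 TPM in IAT adipocytes. Replicate 2 was the highest of the EAT adipocyte libraries for them, unlike for most members, and each EAT adipocyte library lay above each IAT one. In SVCs they held 206, 190 and 175 TPM in EAT and 175, 195 and 169 TPM in IAT.

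Depot calls in SVCs and adipocytes met in 3 members, each in the same direction, and 130 of the 163 were called in neither. Taken singly, 14.6% of all tested genes were called in SVCs and 39.7% in adipocytes. Calls in both or in neither were not counted over all tested genes. The rule also holds the SVC ratio near 1, so these counts are descriptions. For the member of rank 52 the adipocyte difference was the largest above 0. It had 5.32, 3.21 and 7.75 TPM in EAT adipocytes against 2.09, 1.64 and 1.87 TPM in IAT adipocytes, with no overlap. Its SVC levels were 96.8, 93.1 and 82.0 TPM in EAT and 76.3, 70.2 and 89.0 TPM in IAT, which overlapped. In the interaction, which sets the depot difference in adipocytes against that in SVCs, 5 members were called (background 18.1%), 5 with a larger EAT to IAT ratio in adipocytes (10.4%) and 0 with a smaller one (7.76%). At an unadjusted p below 0.05 the edgeR interaction held 20 of the 163 members in either direction. No count was made over all tested genes at this cut, but the 18.1% called at the adjusted cut all pass it. The 20 are therefore no sign of an excess among the members. DESeq2 called 3 with a smaller ratio, against 1949 of all 15813 tested genes. With the replicate block 12 were called, 12 with a larger ratio in adipocytes, against 1749 genes with a larger and 1293 with a smaller ratio. Leaving out EAT adipocyte replicate 2 raised the count to 28. Calls over all genes rose as well, from 1640 larger and 1227 smaller of 15813 to 3270 and 2606 of 16065. Leaving out IAT adipocyte replicate 1 raised the member count to 8, against 1071 and 886 of 16052 genes. It was 2 without IAT adipocyte replicate 2 and 3 without EAT SVC replicate 3, IAT SVC replicate 1 or IAT SVC replicate 2. In each run with 2 or 3 members called, calls over all genes were fewer than in the main fit.

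**Figure D4:**
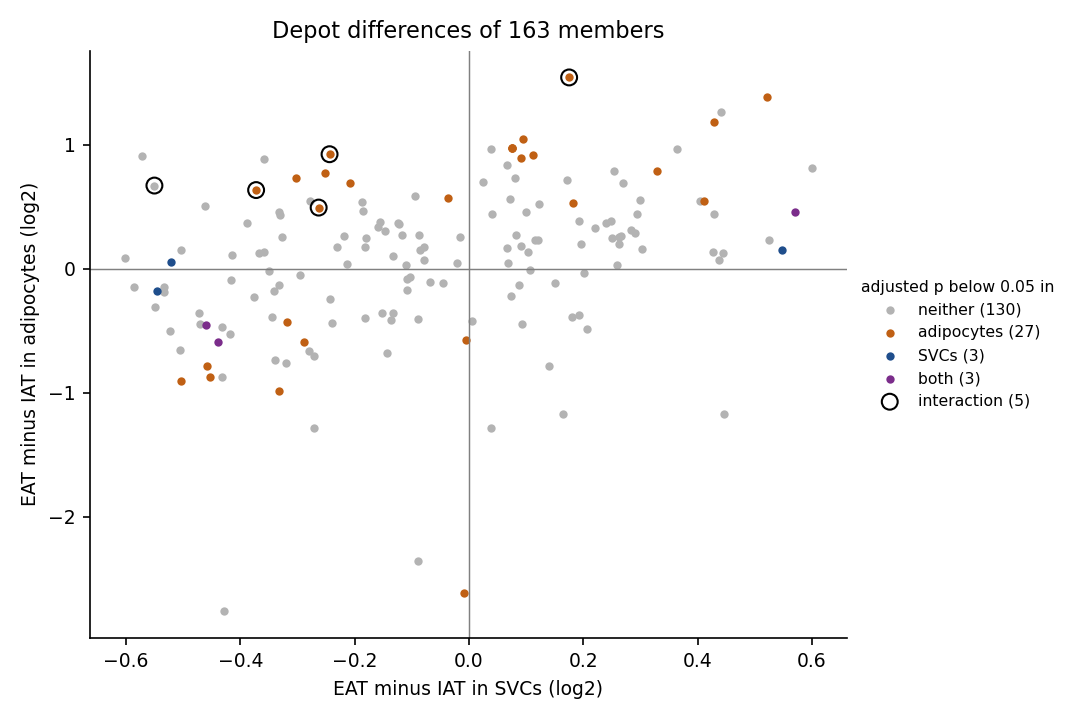
Fitted log2 difference of EAT from IAT in adipocytes against that in SVCs for the 163 tested members, coloured by where the adjusted p was below 0.05, with circles for members called in the interaction of depot and fraction. The SVC differences stay within about the limits of the rule, and the adipocyte differences spread further. Neither difference is called for 130 members, a count not made over all tested genes.

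The spread between replicates was not used by the rule, and its median was larger over the members than over other genes in each group. As the SD of log2 TPM (0.1 added) over the 3 libraries of a group, the median over members with a mean of at least 5 TPM in that group was 0.582 in EAT adipocytes (59 members), 0.240 in IAT adipocytes (58 members), 0.222 in EAT SVCs and 0.167 in IAT SVCs (164 members each). The other genes with at least 5 TPM in both SVC groups had 0.363, 0.130, 0.115 and 0.108, without matching for level. The remaining 92 stroma-restricted genes had 0.459, 0.231, 0.240 and 0.153, near the members in IAT adipocytes and in both SVC groups. Leaving out the library that stood apart reduced the members' value in EAT adipocytes to 0.111. Without replicate 1 it was 0.144 in IAT adipocytes and 0.107 in IAT SVCs.

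The difference of EAT adipocyte replicate 2 from the mean of replicates 1 and 3 varied with gene length. Over the 163 tested members the median was -0.87 on the log2 scale, and 132 members were lower in replicate 2. In 4 bins of members by length, with median lengths of 1101, 2128, 3028 and 5217 bases, the median difference was 0.06, -0.73, -0.98 and -1.43. Lower values in replicate 2 were seen for 18 of 41, 33 of 40, 40 of 41 and 41 of 41 members of these bins. Short members were therefore about as high in this library as in the other 2, and long members were low. No such bins were made for other genes, so the pattern is not shown to be particular to the members. The part of this pattern in the depot differences above was not tested beyond leaving the library out.

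**Figure D5:**
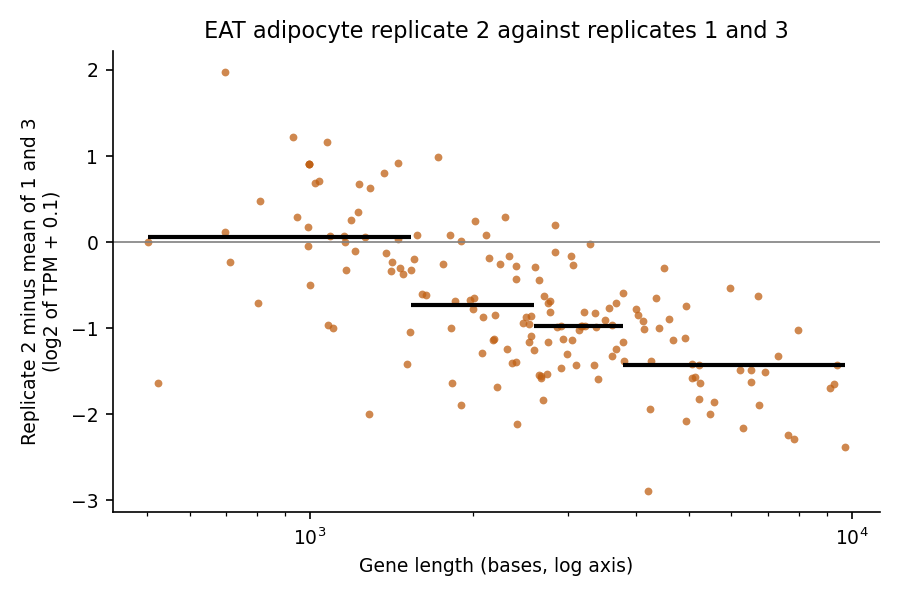
Log2 difference of EAT adipocyte replicate 2 from the mean of replicates 1 and 3 (TPM with 0.1 added) against gene length on a log axis, one point per tested member, with lines at the median of each of 4 bins by length. The medians fall from 0.06 in the shortest bin to -1.43 in the longest.

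Members had a median length of 2580 bases (quartiles 1528 to 3778), against 2651 bases over all tested genes. A single transcript was listed for 63 members (38.4%), against 34.3% of tested genes, 29.9% of genes with at least 5 TPM in both SVC groups and 35.9% of the other 92 stroma-restricted genes. Neither property was used by the rule, and these are descriptions.

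The same replicate number was lowest in both SVC groups for 77 of the 163 tested members (47.2%), against 43.2% of all tested genes, and highest in both for 83 (50.9%), against 39.4%. Replicate 2 was the lowest library in both SVC groups for 42 members (25.8%), against 6.46% of all tested genes, replicate 1 for 4 members (2.45%), against 18.5%, and replicate 3 for 31 members (19.0%), against 18.3%. In IAT, replicate 1 was the highest library of adipocytes and of SVCs for 77 members (47.2%), against 12.2% of all tested genes. It was the highest in all 4 groups for 22 members (13.5%), against 2.84%. These groups include EAT adipocytes, where replicate 2 was low for most members. The labels do not say whether a number marks one animal, so the source of this shared order was not tested.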

How the data were processed

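The members and lists were chosen with earlier results of these data known. The deposited tables hold expected counts, TPM, FPKM and lengths (other values, in bases) per gene, as the file headers say. Builds GRCm38 and mm10, RSEM 1.2.25, limma and Bowtie2 2.2.6 appear in the submitters' processing notes. The authors' deposited expected counts were rounded to whole numbers. The deposited TPM values were used for the rule and for levels, and no result uses the deposited FPKM values. Strand use in counting is not given in the sources here, so antisense, overlapping and near-identical genes are uncertain.

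Counts of all 12 libraries were fitted together with edgeR 4.0.16 (R 4.3.3), with TMM scaling, filterByExpr (15813 genes kept), 1 coefficient per group and 8 residual degrees of freedom. The quasi-likelihood test was two-sided with Benjamini-Hochberg adjustment over all tested genes at 0.05, in 5 comparisons. Log2 differences come from this fit and levels from TPM. The SE printed is the size of the log2 difference divided by the square root of the F statistic of the test, an approximation. The fit was also run on simulated counts in which some genes were raised in EAT SVCs alone. Those counts held no fraction difference in other genes and no library that stood apart. The simulation therefore does not check the fit under these conditions. Alternatives were DESeq2 1.42.0, limma-voom (limma 3.58.1), other scalings, no filter, other limits of the rule, a replicate block and leaving out each library.

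Replicate numbers recur in each group. Deviations of same-numbered libraries from their group means had correlations of 0.225, 0.148 and 0.226 across the 2 IAT fractions and of 0.187, 0.153 and 0.149 across the SVCs of the depots. The numbers may pair samples in these 2 comparisons, but libraries of different numbers were not compared, so pairing was not tested. Each other pair of groups had 1 or more values below 0.1. The main fit had no term for the replicate number, so its results are unpaired in every comparison. In the tests the number entered only the replicate block, an alternative run for every comparison. The named members are the 2 with the highest mean TPM in SVCs and the 2 with the lowest adipocyte to SVC ratio (mean log2 over both depots) among those with at least 50 TPM in both SVC groups.

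UCSC identifiers were matched to no symbol in the tables used here (0 matched), so marker and pathway lists, sequences and coordinates were not used.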

Additional observations from a re-analysis of the deposited data

Results flagged for a closer look

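For 5 of the 163 tested members the difference of EAT from IAT was not the same in adipocytes as in SVCs, by the interaction of depot and fraction in edgeR's quasi-likelihood test (adjusted p below 0.05). In each of the 5 the EAT to IAT ratio was higher in adipocytes, and none was called with the opposite sign. Among all tested genes 10.4% were called in this direction and 7.76% in the other. The rule holds the SVC ratio near 1 and bounds the adipocyte ratio, so these 5 are a description.

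The log2 size of the interaction was 0.76 for the member of rank 7, 1.17 for rank 15, 1.01 for rank 17, 1.37 for rank 52 and 1.22 for rank 153. The member of rank 15 had 42.75, 31.87 and 38.07 TPM in EAT adipocytes and 21.70, 18.30 and 22.10 TPM in IAT adipocytes, without overlap. Its SVC libraries had 453, 303 and 361 TPM in EAT and 414, 428 and 476 TPM in IAT, which overlapped. At rank 7, EAT adipocytes held 103, 55.3 and 119 TPM and IAT adipocytes 85.2, 70.9 and 69.6 TPM. Rank 17 had 33.4, 17.8 and 31.2 TPM against 20.9, 15.6 and 17.6 TPM in these groups. In both, EAT replicate 2 was the lowest of its group and overlapped with IAT. At rank 153 all 6 adipocyte libraries were below 1 TPM. The SVC groups did not overlap at rank 7, with 984, 908 and 797 TPM in EAT and 1183, 1129 and 1020 TPM in IAT. Nor did they at rank 153, with 6.24, 4.52 and 5.07 TPM in EAT and 9.06, 7.64 and 6.32 TPM in IAT. In both of these members IAT SVCs were the higher. At rank 17 SVCs held 377, 246 and 287 TPM in EAT and 420, 370 and 380 TPM in IAT, which overlapped. With the replicate block 12 members were called, against 1749 genes with a larger and 1293 with a smaller ratio of all 15813 tested. Without EAT adipocyte replicate 2, 28 members were called, against 3270 and 2606 of 16065 genes. Without IAT adipocyte replicate 2, 2 members were called, against 1086 and 922 of 16056 genes.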

How the results depend on the processing

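All 163 tested members were called higher in SVCs in both depots under every alternative, the replicate block and each left-out library included. The rule chose the members by this difference in the same libraries, so these counts are fixed beforehand and lend no support. Of all 15813 tested genes, the main fit called 5061 higher in EAT and 6401 in IAT. DESeq2 called 4967 and 5738, and scaling by library size alone gave 5841 and 7488. The number of members, 164, became 97 with 1 TPM added in place of 0.1, 455 at a fraction ratio of at least 4, 32 at 16 or more, and 98 with a minimum of 20 TPM. Leaving out each library gave 153 to 173, and 102 of the 164 (62.2%) remained members in every such run. Members called between depots in SVCs (6) were 14 with DESeq2, against 1395 higher and 1544 lower of all 15813 tested genes. They were 10 with the replicate block (1328 and 1177 of all genes) and 1 to 31 with libraries left out. The 31 stood against 2390 and 2357 of 16065 genes, and the 1 without IAT SVC replicate 2 against 720 and 581 of 16046. In adipocytes the count (30) was 18 with DESeq2's size factors, against 2814 higher and 3717 lower of all 15813 tested genes. It was 19 with limma-voom (3190 and 2991 of all genes) and 10 to 53 with libraries left out. The 10 stood against 2754 and 2258 of 16056 genes, and the 53 against 4352 and 4222 of 16065. The interaction (5) gave 10 with DESeq2, against 1656 larger and 1949 smaller of all 15813 tested genes. It gave 12 with the replicate block (1749 and 1293 of all genes) and 2 to 28 with libraries left out. The 2 stood against 1086 and 922 of 16056 genes, and the 28 against 3270 and 2606 of 16065. In each of these comparisons the highest count came without EAT adipocyte replicate 2, where more of all tested genes were called too. The share of the SVC level left in IAT adipocytes (7.10%) was 9.39% from CPM and 10.3% with 1 TPM added, and 6.56% to 7.32% with libraries left out. The replicate spread in EAT adipocytes (0.582) was 0.378 from CPM. With libraries left out it ran from 0.111 to 0.723 there, 0.144 to 0.228 in IAT adipocytes and 0.107 to 0.159 in IAT SVCs. The SVC depot difference changed sign for uc008bas.1 (-0.041 without EAT SVC replicate 1, 0.77 as the highest with libraries left out) and uc007ubf.1 (-0.27 without EAT SVC replicate 1, -0.02 without IAT SVC replicate 2, 0.47 as the highest). Apart from runs that leave out a library or change a limit, the cause of these changes was not tested. Depth limits members with few counts in adipocytes.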

Other observations

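Some members varied between libraries more than the rest, and the following were chosen after their values were seen. The member of rank 75 had the widest spread in EAT SVCs among the tested members, as the SD of log2 TPM over replicates, with 32.9, 13.3 and 104 TPM in EAT and 61.5, 20.5 and 20.1 TPM in IAT. Its adipocyte levels were 1.25, 0.54 and 2.85 TPM in EAT and 1.67, 0.48 and 0.42 TPM in IAT. Replicate 3 was the highest library in both EAT fractions, and replicate 1 in both IAT fractions.

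Replicate 2 was the lowest library in all 4 groups for 17 of the 163 tested members (10.4%), against 1.53% of all tested genes, and replicate 3 for 5 members (3.07%), against 1.31%. One of the 4 groups is EAT adipocytes, where replicate 2 stood apart and 132 of the 163 members were below the mean of replicates 1 and 3. The share for replicate 2 thus rests in part on that library. At rank 59 replicate 3 had 35.3 TPM against 81.9 and 63.9 TPM in EAT SVCs, and 39.0 TPM against 91.8 and 110 TPM in IAT SVCs. Adipocytes of replicate 3 held 2.94 TPM against 5.16 and 6.35 TPM in EAT, and 2.56 TPM against 7.01 and 7.63 TPM in IAT. Replicates 1 and 2 of this member were in no common order across the groups.

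The members of rank 47 and 73 resembled uc008bas.1 in their values. Rank 47 had 145, 48.0 and 78.2 TPM in EAT SVCs and 107, 74.2 and 84.3 TPM in IAT SVCs, with 1.07, 1.63 and 1.91 TPM in EAT adipocytes and 6.30, 2.61 and 3.13 TPM in IAT adipocytes. Rank 73 had 80.0, 29.3 and 49.5 TPM and 61.3, 40.1 and 40.8 TPM in these SVC groups, with 0.62, 0.75 and 0.86 TPM in EAT adipocytes and 3.00, 1.14 and 1.18 TPM in IAT adipocytes. For both, the adipocyte groups did not overlap, with IAT higher, a pattern held by 23.8% of all tested genes. The edgeR test called neither difference, with an adjusted p of 0.075 at rank 47 and 0.12 at rank 73.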
